A study of Mus musculus with 12 samples.

Results

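The 7 genes described here encode secreted proteins of 3 families: the resistin-like genes *Retnla* and *Retnlg*, the RNase genes *Rnase2a* and *Ear2*, and the chitinase-like genes *Chil1*, *Chil3* and *Chil4*. They are 7 of the 48526 genes in a table of RNA-seq counts, and each was found by the Ensembl identifier that maps to its symbol. The group was chosen from levels already seen in these libraries, *Retnla* and *Rnase2a* foremost, so the levels of the 7 genes are given as a description with no p-value.

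The cells were bone marrow-derived macrophages (BMDMs), grown with macrophage colony-stimulating factor from the marrow of 3 female C57Bl/6J mice and used on day 7. Each mouse gave an untreated culture and cultures treated for 16 hr with IL-4 (100 pg/mL), Wnt3a (100 ng/mL) or Wnt3a+IL-4. Within a mouse, no gene had a Wnt3a count that was lower than its Wnt3a+IL-4 count or over 2 times as high (0 of 48526 genes), whereas 6681 to 8625 genes broke these bounds when columns of different mice were set together. Both Wnt3a-containing columns of a mouse thus share reads. Subtracting Wnt3a+IL-4 from Wnt3a gave a library called the difference, and taking that out of Wnt3a+IL-4 again left a library called the remainder. Both come from cells that received Wnt3a. Which of them also received IL-4 is not settled by the labels and was not decided from levels. Totals ranged from 13342492 to 17453377 counts over the 12 libraries. Levels are given in counts, in counts scaled to the effective size of the library (CPM) or, between genes, in the same per kilobase of exon (RPKM). Defining genes of macrophages were present in every library (8 of 8 markers, 43979 to 68614 CPM summed), and summed B cell and T cell markers did not pass 0.361 CPM. In bulk RNA of this kind, a change in the number of cells of a type and a change in RNA per cell cannot be told apart.

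IL-4 binds a receptor at the macrophage surface that activates the transcription factor STAT6, and *Retnla* and *Chil3* are classical target genes of this pathway in mouse macrophages. Resistin-like proteins are small, cysteine-rich and secreted, and the protein of *Retnla* (RELMα) is abundant in helminth infection and tissue repair. *Chil1*, *Chil3* and *Chil4* encode proteins with the fold of a chitinase that lack its activity, and *Rnase2a* and *Ear2* belong to the eosinophil-associated RNases of the RNase A superfamily, several of which are also made by macrophages.

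In untreated cells *Chil3* was the most abundant of the 7 genes, and in IL-4 libraries *Rnase2a* and *Retnla* stood above it. The *Chil3* level was 8.78 ± 1.09 RPKM (SD, n = 3 mice) in untreated libraries, and each of the other 6 genes averaged 0.504 RPKM or less. With IL-4, *Rnase2a* reached 82.5 ± 36.0 RPKM and *Retnla* 69.9 ± 11.2 RPKM, and the ranges of these 2 genes overlapped. *Chil3* followed at 17.2 ± 1.13 RPKM, then *Ear2* at 5.77 ± 2.58 RPKM, and *Retnlg*, *Chil1* and *Chil4* averaged 0.740 RPKM or less. In the difference *Chil3* was again first (9.24 ± 0.643 RPKM) and no other gene averaged over 0.268 RPKM. In the remainder *Chil3* (12.03 ± 1.62 RPKM) was followed by *Rnase2a* (6.41 ± 3.71 RPKM), and the lowest *Chil3* library (10.5 RPKM) lay just above the highest *Rnase2a* library (10.2 RPKM).

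Compared by CPM, all 3 IL-4 libraries lay above all 3 untreated libraries for 5 of the 7 genes, and below them for 0. These 5 were *Retnla*, *Rnase2a*, *Ear2*, *Chil3* and *Chil4*. Of the 12421 genes that passed a count filter (5 of the 7 among them, all but *Retnlg* and *Chil4*), 10.8% lay above and 9.02% below without overlap. The difference stood apart from untreated in 0 of the 7 genes, against 19.5% of the 12421 above and 19.6% below. The remainder was higher than untreated without overlap for *Rnase2a* and *Chil3* and lower for 0, against 18.9% above and 16.8% below. It was higher than the difference for *Rnase2a*, *Ear2* and *Chil3* and lower for 0 genes, while 22.4% of the 12421 did not overlap in one direction or the other. Against IL-4, the difference was lower for 6 of the 7 genes (all but *Chil1*) and the remainder for 6 of the 7 (all but *Chil4*). Of the 12421 genes, 19.5% lay below and 19.1% above in the difference against IL-4, and 17.5% below and 18.4% above in the remainder. Since the 7 genes were chosen from these comparisons, nothing is read from their counts beside these shares.

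**Figure D1:**
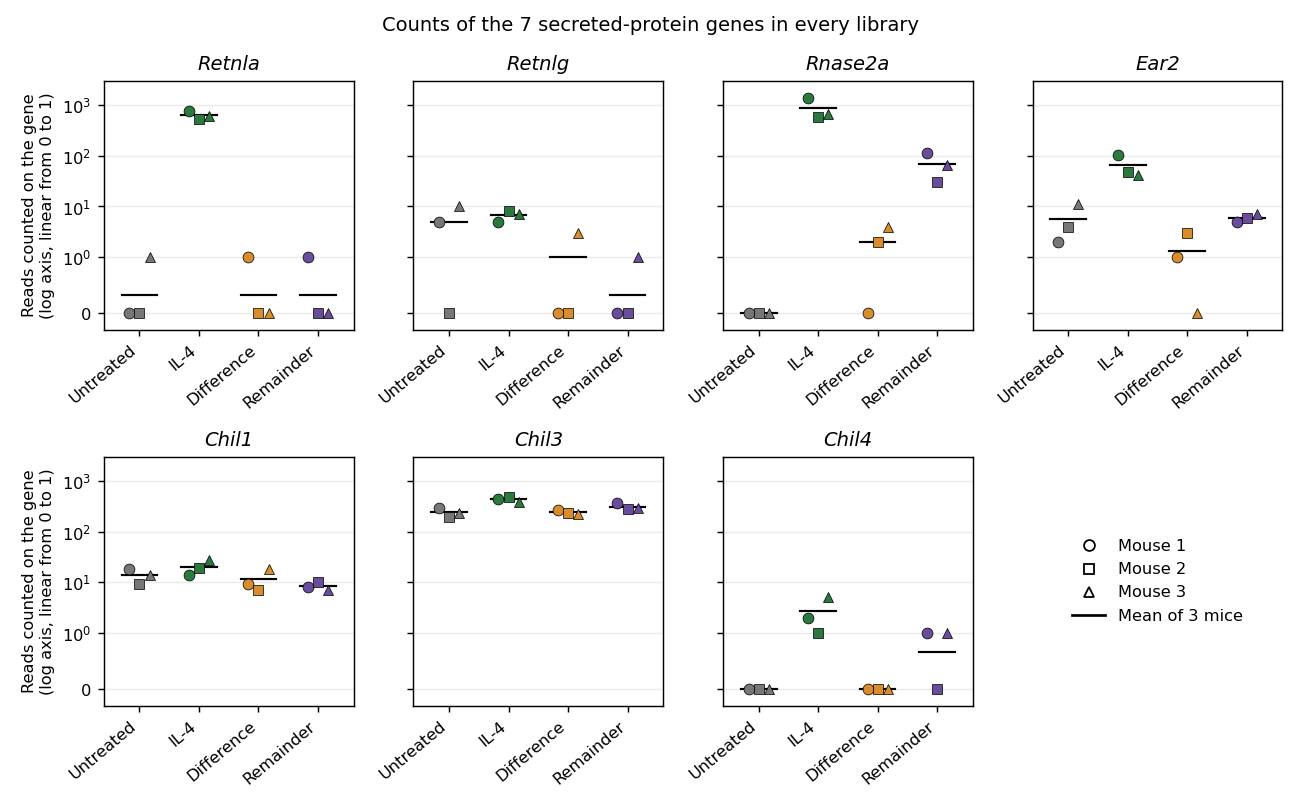
Reads counted on each of the 7 genes (y axis, logarithmic above 1 and linear from 0 to 1) in the untreated, IL-4, difference and remainder libraries (x axis), with 1 symbol per mouse and a line at the mean of 3 mice. *Retnla* is at 535 or more counts in the IL-4 libraries and at 1 or 0 in all others, while *Rnase2a* keeps 31 to 113 counts in the remainder and *Chil3* stays between 193 and 471 counts throughout.

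*Retnla* (ENSMUSG00000061100) lies on the plus strand of chromosome 16 of mm10, from 48842551 to 48844461, and *Retnlg* (ENSMUSG00000022651), known from bone marrow and neutrophils, lies 28159 bases downstream, from 48872621 to 48874496. Their transcripts are identical over 82.8% of the longer length, and neither shares any 50-base stretch with another gene. Over 16 pairs of transcripts from different families the range was 25.6% to 50.6%, but this measure is capped low for pairs of unlike length. Pairs of a resistin-like and an RNase transcript, which are closer in length, gave 49.5% to 50.6%. The upstream stretches that align best around a STAT-type motif are shown because the 2 genes carry it in common and differ in level. They are chr16:48842424-48842513 and chr16:48872496-48872585 (GRCm38.p6, plus strand, RefSeq), and capitals mark the STAT-type motif with a spacer of 4 bases (TTC and GAA with any 4 bases between) and TTGCNNAA (a form of the C/EBP motif), both searched on both strands.
*Retnla*: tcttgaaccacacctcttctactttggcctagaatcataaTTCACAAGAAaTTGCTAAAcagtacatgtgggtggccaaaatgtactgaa
*Retnlg*: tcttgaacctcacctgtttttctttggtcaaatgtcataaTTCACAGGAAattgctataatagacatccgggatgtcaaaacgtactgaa

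The 2 stretches matched at 80.9% of 89 aligned bases. In *Retnla* the STAT-type match lay 145 to 136 bases before the RefSeq start and the C/EBP-type match 134 to 127 bases before it, so they do not overlap. In *Retnlg* the STAT-type match lay 72 to 63 bases before the RefSeq start, and its C/EBP-type match was elsewhere, 246 to 239 bases before it on the minus strand. The RefSeq starts of both genes differ from the gene coordinates printed above. Measured from the printed coordinates, the STAT-type matches lie at nearly the same distance upstream in both genes. This STAT-type motif was found in 5.85% and TTGCNNAA in 9.56% of 32851 RefSeq windows of 250 bases.

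*Retnla* was counted 781, 535 and 618 times in the IL-4 libraries of mouse 1, 2 and 3. It was counted 0, 0 and 1 times in the untreated libraries. In the difference, and again in the remainder, it was counted 1, 0 and 0 times. The IL-4 libraries therefore stood alone, at 41.9 ± 6.74 CPM (SD, n = 3), with the other 9 libraries at or under 1 count. The pooled IL-4 level was 2097 times the untreated level, with an exact 95% interval of 376 to 82887 that covers counting error only. It was 1993 times the level in the difference (357 to 78765) and 1993 times that in the remainder (357 to 78749). Each of these ratios rests on the 1 count in the lower group: without the mouse that holds it, IL-4 was at least 463-fold above untreated (without mouse 3), at least 392-fold above the difference and at least 410-fold above the remainder (both without mouse 1). With that count kept, the ratio to untreated was 1230 without mouse 1 and the ratio to the remainder 1318 without mouse 3. Counts of 3 in a Wnt3a-treated library would have been 0.367% to 0.539% of the level in that mouse's IL-4 library, so a level under that share could not be told from 0 at this depth. Whichever of the difference and the remainder received IL-4 together with Wnt3a, it held at most 1 *Retnla* count in each mouse.

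*Retnlg* was counted 5, 0 and 10 times in the untreated libraries and 5, 8 and 7 times in the IL-4 libraries, which overlap. It was counted 0, 0 and 3 times in the difference and 0, 0 and 1 times in the remainder. Pooled over mice, IL-4 gave 1.45 times the untreated level (95% interval 0.704 to 3.04), the difference 0.211 times (0.0391 to 0.744) and the remainder 0.0702 times (0.0017 to 0.456). Without mouse 2 the IL-4 ratio was 0.905 and without mouse 3 it was 2.75, and without mouse 3 the difference and the remainder held 0 counts. *Retnlg* did not reach the minimum of 10 counts in 3 libraries for the test across genes. Markers of neutrophils moved beside it: *S100a8* ranged from 124 to 204 counts in untreated, 179 to 221 in IL-4, 112 to 152 in difference and 109 to 121 in remainder libraries, and *Ltf* from 149 to 220, 199 to 239, 111 to 150 and 80 to 95. Over the whole list of 12 neutrophil markers, which *Csf3r* and *Mmp8* dominate, the sum went the other way in the Wnt3a-treated libraries. It ranged from 239 to 289 CPM in untreated, 244 to 292 in IL-4, 319 to 344 in difference and 319 to 339 in remainder libraries. The part of such cells in the *Retnlg* level was not tested.

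*Rnase2a* (ENSMUSG00000047222) lies on the minus strand of chromosome 14, from 51255262 to 51256112, and *Ear2* (ENSMUSG00000072596) on the plus strand of the same chromosome, from 44102654 to 44103534, with 7151727 bases between them. Both are genes of 2 exon blocks, and their transcripts are identical over 78.4% of the longer length. *Rnase2a* shares no 50-base stretch with another gene. *Ear2* shares 41.5% of its stretches, 26.0% with *Ear10*, so its counts are less certain, and *Ear10* itself had 0 counts in all libraries. The aligned upstream stretches below are shown because a C/EBP-type match that *Ear2* holds at 90 to 83 bases before its start (in capitals) is missing at the aligned place in *Rnase2a*. They are chr14:51256197-51256286 on the minus strand and chr14:44102524-44102613 on the plus strand (GRCm38.p6, RefSeq).
*Rnase2a*: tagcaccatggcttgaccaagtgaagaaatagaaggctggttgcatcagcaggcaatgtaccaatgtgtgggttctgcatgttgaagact
*Ear2*: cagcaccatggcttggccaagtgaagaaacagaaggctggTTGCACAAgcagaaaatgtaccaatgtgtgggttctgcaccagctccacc

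The 2 stretches matched at 82.2% of 90 aligned bases. *Rnase2a* has its own TTGCNNAA further upstream, 217 to 210 bases before its start. Neither STAT-type motif was found in the 250 bases of either gene.

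*Rnase2a* was counted 1413, 575 and 683 times in the IL-4 libraries of mouse 1, 2 and 3 and 0 times in each untreated library. The difference held 0, 2 and 4 counts. The remainder held 113, 31 and 66 counts. The 4 groups thus formed 3 levels without overlap: IL-4 at 56.9 ± 24.9 CPM, the remainder at 4.42 ± 2.56 CPM (both SD, n = 3), and the difference at 0.291 CPM or less in each mouse, beside untreated libraries at 0. Taking 3 counts over the group as the floor, IL-4 was at least 966-fold and the remainder at least 73.7-fold higher than untreated. The remainder was 35.0 times the difference (95% interval 15.8 to 96.5), 15.5 times without mouse 1 and 75.3 times without mouse 3. Without mouse 1, the mouse with the highest counts, IL-4 was at least 448-fold and the remainder at least 32.3-fold above untreated. IL-4 was 13.1 times the remainder (11.4 to 15.2), and from 12.01 to 13.8 times with any mouse left out.

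Mouse by mouse, *Rnase2a* in the remainder was 8.29%, 5.18% and 8.80% of its level with IL-4 alone. Mouse 1 was the highest and mouse 2 the lowest in both groups, and the shares spanned a narrower range of folds than the levels. The same gene reached at most 0.590% of the IL-4 level in the difference. In the deposited columns this contrast is nearly hidden, with 113, 35 and 74 counts under Wnt3a and 113, 33 and 70 under Wnt3a+IL-4, because the remainder enters both columns.

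*Ear2*, the other eosinophil-associated RNase, was counted 105, 49 and 42 times with IL-4. It was counted 2, 4 and 11 times in untreated libraries, 1, 3 and 0 times in the difference and 5, 6 and 7 times in the remainder. The IL-4 libraries lay above all others, at 4.15 ± 1.86 CPM (SD, n = 3), and 12.5 times the untreated level (95% interval 7.61 to 21.9). That ratio was 6.47 without mouse 1 and 27.1 without mouse 3. Unlike *Rnase2a*, *Ear2* in the remainder overlapped the untreated libraries, at 1.11 times their level (0.542 to 2.30). The remainder was 4.50 times the difference (1.48 to 18.3), and the difference was 0.248 times untreated (0.0606 to 0.759). With so few counts these moved with single mice, to 1.93 without mouse 3 for remainder against untreated, to 11.96 without mouse 2 and 2.88 without mouse 3 for remainder against difference, and to 0.0851 without mouse 2 and 0.673 without mouse 3 for difference against untreated. The test of a difference between the 2 genes was not run, since both were chosen for their levels.

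Markers of eosinophils were detected in every library, including the untreated ones, where *Rnase2a* had 0 counts. The 6 eosinophil markers summed to 1.42 to 2.45 CPM in untreated, 4.76 to 6.33 in IL-4, 2.14 to 2.75 in difference and 2.17 to 5.72 in remainder libraries. *Siglecf*, a lectin that alveolar macrophages also carry, made 22 to 64 counts in IL-4 libraries against 6 to 9 in untreated, 8 to 12 in difference and 21 to 31 in remainder libraries. *Ccr3*, the eotaxin receptor, made 30 to 50 counts with IL-4 against 13 to 29 in untreated, 15 to 40 in difference and 14 to 61 in remainder libraries. *Epx*, the eosinophil peroxidase, had 0 counts in every untreated, difference and remainder library and at most 1 with IL-4, and *Prg2*, the granule major basic protein, had at most 7. The other markers, *Prg3* and *Il5ra*, had at most 2 and 0 counts in any library. Marker and RNase levels per cell were not measured, so the sum cannot be set against the *Ear2* or *Rnase2a* level. The part of such cells in either level was not tested.

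*Chil3* (ENSMUSG00000040809, minus strand of chromosome 3, from 106147554 to 106167564) and *Chil4* (ENSMUSG00000063779, from 106201490 to 106219507) lie 33925 bases apart on the same strand. Their transcripts are identical over 94.4% of the longer length. *Chil3* shares 26.9% of its 50-base stretches with other genes (16.9% with *Chil4*) and *Chil4* 11.0% (9.95% with *Chil3*), so reads of one can be assigned less surely than those of *Retnla* or *Rnase2a*. *Chil1* (ENSMUSG00000064246, plus strand of chromosome 1, from 134182176 to 134190181) shares none. The upstream stretches of the near-identical pair are shown because both hold TTCNNNGAA, the STAT-type motif with a spacer of 3 bases (in capitals), although the genes differ greatly in level. They are chr3:106167687-106167776 and chr3:106219630-106219719 (GRCm38.p6, minus strand, RefSeq).
*Chil3*: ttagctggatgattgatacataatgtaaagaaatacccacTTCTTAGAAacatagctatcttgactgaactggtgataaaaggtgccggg
*Chil4*: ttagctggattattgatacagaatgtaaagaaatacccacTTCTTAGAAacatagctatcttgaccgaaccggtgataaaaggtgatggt

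The 2 stretches matched at 92.2% of 90 aligned bases, and the 9 bases of the match were the same. It lay 172 to 164 bases before the RefSeq start in *Chil3* and 200 to 192 in *Chil4*, and 7.02% of all windows hold the motif. The RefSeq start of *Chil4* lies inside the gene coordinates printed above. Measured from the printed coordinates, the match lies at the same distance upstream in both genes. *Chil4* also held TTGCNNAA 131 to 124 bases before its start on the minus strand and a TATA box (TATAAA) at 31 to 26, and *Retnla* held a TATA box at 30 to 25. The *Retnla* TATA box lies inside the printed gene coordinates, and that of *Chil4* spans the printed upstream end of the gene. TATAAA was found in 12.37% of windows. CTTTGA, a form of the core motif of the TCF/LEF factors through which canonical Wnt signaling acts, was found in 0 of the 7 stretches and in 13.83% of all windows. Other forms were not searched. *Chil1* held none of the 5 motifs.

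**Figure D2:**
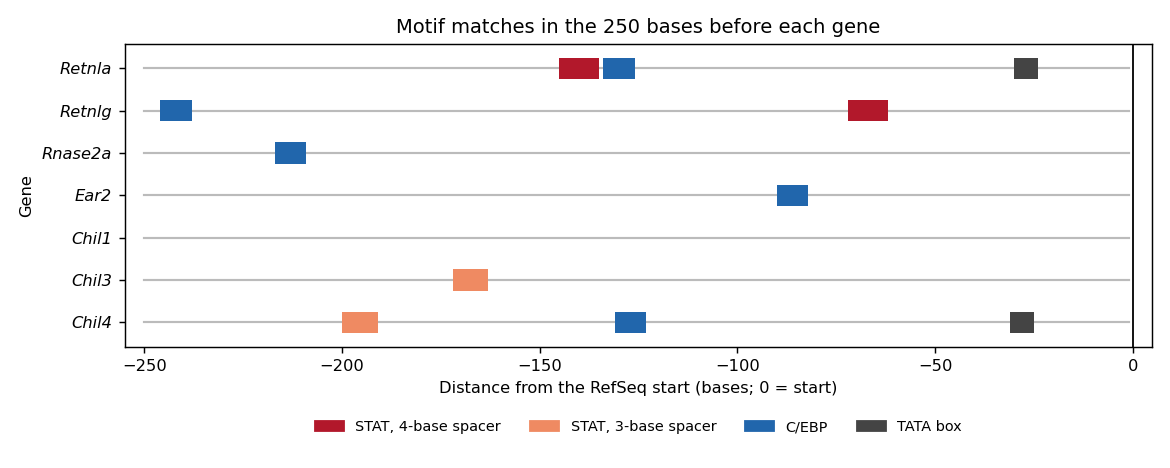
Matches of 4 of the 5 motifs searched (coloured boxes) in the 250 bases before the RefSeq start of each of the 7 genes (rows), by distance from the start in bases (x axis, 0 at the start). RefSeq starts differ from the printed gene coordinates in *Retnla*, *Retnlg* and *Chil4*. *Retnla* and *Retnlg* hold the STAT-type motif with a spacer of 4 bases and *Chil3* and *Chil4* the one with 3. TTGCNNAA (C/EBP) is in 5 genes and CTTTGA in 0, against 9.56% and 13.83% of all windows.

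*Chil3* was counted 296, 193 and 234 times in untreated libraries and 443, 471 and 380 times with IL-4. It was counted 263, 230 and 222 times in the difference and 360, 278 and 296 times in the remainder. The IL-4 level was 28.0 ± 1.85 CPM (SD, n = 3) against 14.3 ± 1.77 CPM in untreated, a ratio of 1.94 (95% interval 1.77 to 2.13), and the groups did not overlap. The difference (15.1 ± 1.05 CPM) overlapped the untreated libraries, at 1.04 times their level (0.937 to 1.16). The remainder (19.6 ± 2.64 CPM) lay above untreated and difference and below IL-4 in every library, at 1.36 times untreated (1.23 to 1.50) and 1.31 times the difference (1.18 to 1.44). Against the IL-4 library of the same mouse, it stood at 84.2%, 56.8% and 70.9%.

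*Chil4* had 2, 1 and 5 counts with IL-4, 0 in every untreated and difference library, and 1, 0 and 1 in the remainder. Its pooled level with IL-4 was 2.89 times an untreated floor of 3 counts. The exact 95% limits of the pooled counts overlapped, reaching down to 3.45 with IL-4 and up to 3.69 in untreated. The IL-4 level was 4.12 times the remainder (95% interval 0.823 to 39.8), or 6.40 times without mouse 1. Whether reads of the far more abundant *Chil3* were counted here was not tested.

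*Chil1* was counted 18, 9 and 14 times in untreated libraries and 14, 19 and 27 times with IL-4, which overlap. It was counted 9, 7 and 18 times in the difference and 8, 10 and 7 times in the remainder. IL-4 gave 1.59 times the untreated level (95% interval 1.05 to 2.42) and 2.47 times the remainder (1.53 to 4.12), and the remainder libraries were all below the IL-4 libraries. By the correlation of log2 CPM over the 12 libraries, the genes most like *Chil1* were the neutrophil genes *S100a9* (Pearson r = 0.90) and *S100a8* (0.88). *S100a9* ranged from 261 to 362 counts in untreated, 338 to 374 in IL-4, 196 to 278 in difference and 181 to 191 in remainder libraries. The sum of all 12 neutrophil markers, which *Csf3r* and *Mmp8* dominate, went the other way in the Wnt3a-treated libraries. It was 239 to 289 CPM in untreated, 244 to 292 in IL-4, 319 to 344 in difference and 319 to 339 in remainder libraries. By count range, *S100a8*, *Ngp*, *Ltf*, *Camp* and *Cd177* lay lower in remainder than in untreated libraries, as *S100a9* did. *Mmp8* lay higher, and the other listed markers overlapped. The part of such cells in the *Chil1* level was not tested.

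The same measure gave other neighbours for the remaining genes that passed the count filter. For *Retnla* these were *Mpp6* (r = 0.95), *Txnip* (0.94) and *Mcm6* (0.94). For *Rnase2a* they were *Hr* (0.98), *Chil3* (0.95) and *Mgl2* (0.95), for *Chil3* they were *Hr* (0.96), *Rnase2a* (0.95) and *Mpp6* (0.92), and for *Ear2* they were *Clic4*, *Il6st* and *Mcm6* (all 0.94). The 12 points fall into the 4 groups and share their mice, so these values mostly describe group levels. *Rnase2a* and *Chil3* were each among the 3 nearest neighbours of the other, but both were chosen from their levels in these libraries, so nothing is read from it.

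Relatives of the 7 genes that are no members of the group were set beside them to see how far the pattern reached in the families. Of 28 relatives listed, 27 were in the table and 5 passed the count filter, while the other 22 had at most 8 counts in any library. Both remaining resistin-family genes, *Retn* and *Retnlb*, were among those. By edgeR's quasi-likelihood test, 3 of the 5 were higher with IL-4 than in untreated cells and 0 were lower, with a median log2 fold change of 0.72 against -0.003 over all tested genes. Of the 12421 genes tested, 2.31% were called higher and 1.09% lower in this comparison (adjusted p under 0.05). With libraries scaled by total counts alone the same test gave 247 genes higher and 212 lower in place of 287 and 135. The 3 are RNases: *Rnase6*, an antimicrobial RNase (log2 fold change 1.23 ± 0.21 SE, adjusted p = 0.0039), *Rnase4* (0.77 ± 0.11, adjusted p = 0.00091) and *Ang*, which encodes angiogenin (0.72 ± 0.16, adjusted p = 0.022). Without mouse 3, 0 of the 3 were called, with the same direction, and *Ang* was also not called without mouse 1.

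*Rnase6* was at 10.7 ± 1.08 CPM with IL-4 and 4.52 ± 1.09 CPM in untreated libraries (SD, n = 3). It was lower than with IL-4 in the difference, at 2.80 ± 0.155 CPM (log2 fold change -1.93, edgeR adjusted p = 2e-05), and in the remainder, at 3.35 ± 1.05 CPM (-1.67, adjusted p = 7.8e-05), and both calls held in each alternative run. *Rnase4* was 111 ± 16.0 CPM with IL-4, 69.7 ± 5.59 CPM in the difference (log2 fold change -0.67 against IL-4, edgeR adjusted p = 0.00044) and 92.9 ± 9.56 CPM in the remainder (-0.26, adjusted p = 0.12). *Ang* was 14.4 ± 2.67 CPM with IL-4 and 14.3 ± 2.58 CPM in the remainder. In the difference it was 10.3 ± 0.548 CPM (log2 fold change -0.48 against IL-4, edgeR adjusted p = 0.045), a call lost with mouse as replicate block, with DESeq2's size factors, without mouse 1 and without mouse 3. *Rnase4* and *Ang* overlap in 13.38% and 18.22% of their exon bases on the same strand, so some of their reads cannot be told apart.

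Counts over the 5 relatives differed by comparison. Against untreated, the remainder was higher in 3 (*Rnase4*, *Ang* and *Chid1*, a chitinase-domain gene) and lower in 0, with a median of 0.51, and the difference was lower in 1 (*Rnase6*) and higher in 0, with a median of 0.14. Over all tested genes, 13.6% were called higher and 11.7% lower in the remainder and 11.8% and 11.4% in the difference. With total counts alone, the calls turned to 1293 higher and 2342 lower (from 1687 and 1450) in the remainder, and to 1131 and 2238 (from 1462 and 1422) in the difference. Without mouse 1 or without mouse 3, 1 relative was called in the remainder and 0 in the difference. With only the groups compared, *Rnase6* was not called in the difference and 1 other relative was called higher. The remainder was higher than the difference in 1 (*Rnase4*, adjusted p = 0.044 by edgeR), with a median of 0.34, against 2.87% of all tested genes higher and 2.38% lower. This call was lost with total counts, with only the groups compared, without mouse 1 and without mouse 3. Against IL-4, the difference was lower in 3 and higher in 0 (median -0.48), against 10.3% and 10.0% of all tested genes. The remainder was lower than IL-4 in 1 (*Rnase6*) and higher in 1 (*Chid1*, not called without mouse 3), with a median of -0.12, against 9.67% and 10.6%. Medians over all tested genes lay between -0.0235 and 0.0102 in these comparisons. *Ctbs*, the chitobiase gene, was not called in any of the 6 comparisons.

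**Figure D3:**
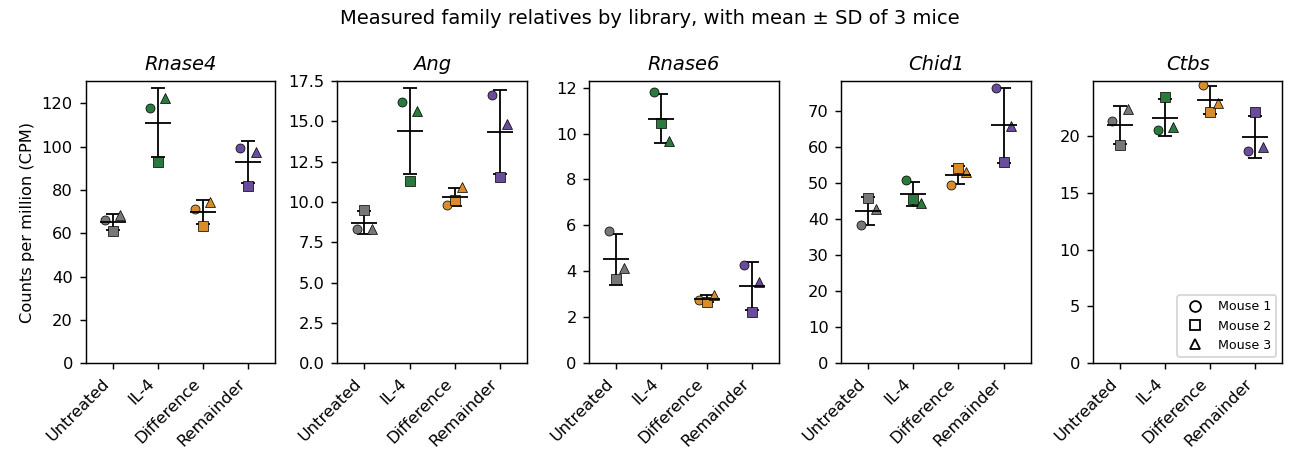
CPM (y axes, each from 0) of the 5 measured family relatives in the untreated, IL-4, difference and remainder libraries, with 1 symbol per mouse and bars for the mean ± SD of 3 mice. *Rnase6* stands at 9.67 to 11.8 CPM with IL-4 and at 5.75 CPM or less elsewhere, whereas *Ang* averages 14.4 CPM with IL-4 and 14.3 CPM in the remainder.

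A list of 34 genes of IL-4 signaling and its known targets, of which 32 were tested, was set beside the 7 genes. It was chosen with earlier results of these data known. By edgeR, 15 of the 32 rose with IL-4 and 0 fell (median log2 fold change 0.95), against 2.31% and 1.09% of all tested genes. Among them were *Mgl2*, a lectin receptor (3.81 ± 0.30 SE, adjusted p = 4.6e-06), *Egr2*, a transcription factor (2.38 ± 0.12, adjusted p = 8.9e-08), *Mrc1*, the mannose receptor (2.14 ± 0.20, adjusted p = 2.6e-05), and *Arg1*, the arginase (4.51 ± 0.99, adjusted p = 0.02), whose call was lost without mouse 2 or mouse 3. *Stat6* itself was not called in any of the 6 comparisons (log2 fold change -0.05 with IL-4). Without mouse 3, 9 of the list were called with IL-4.

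Of the 32 genes, 21 were higher and 3 lower in the remainder than in untreated cells (median 1.12), and 11 were higher and 11 lower in the difference (median 0.11). Over all tested genes, 13.6% were called higher and 11.7% lower in the remainder, and 11.8% and 11.4% in the difference. Between the Wnt3a-treated libraries, 19 were higher in the remainder and 1 was lower (median 0.88), against 2.87% and 2.38% of all tested genes. Without mouse 3 these comparisons gave 16, 13 and 9 calls. The remainder was higher than IL-4 in 12 and lower in 11 of the 32 (median -0.09), and the difference was higher in 6 and lower in 17 (median -0.83). Of all tested genes, 10.6% were higher and 9.67% lower in the remainder, and 10.0% and 10.3% in the difference. The comparisons share their untreated and IL-4 libraries.

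Against IL-4 alone, the remainder was highest for *Ccl22* and *Ccl17*, chemokines (log2 fold change 4.38, edgeR adjusted p = 4.6e-05, and 3.16, adjusted p = 0.018, not called without mouse 3), for *Arg1* (3.06, adjusted p = 0.00038) and for *Cish* and *Socs1*, feedback inhibitors of cytokine signaling (2.79, adjusted p = 6.9e-06, and 2.22, adjusted p = 2.3e-05). It was lowest for *Pparg*, a lipid-sensing nuclear receptor (-1.89, adjusted p = 2e-08), *Irf4*, a transcription factor of alternative activation (-1.42, adjusted p = 0.00011), *Cd36*, a scavenger receptor (-1.41, adjusted p = 1e-05), *Mgl2* (-1.34, adjusted p = 0.0011), *Flt1* (-1.08, adjusted p = 0.0035) and *Cebpa*, a C/EBP factor of myeloid cells (-1.04, adjusted p = 3.1e-05). The genes named here as lowest were all also lower than IL-4 in the difference, from *Cebpa* (-1.37, edgeR adjusted p = 2.1e-06) to *Flt1* (-5.60, adjusted p = 3.4e-08). *Pparg* and *Cebpa* were lower than untreated in both the difference and the remainder. In the difference they stood at -1.85 (adjusted p = 2.1e-08) and -1.03 (adjusted p = 3.4e-05). In the remainder they stood at -0.98 (adjusted p = 4.7e-06) and -0.71 (adjusted p = 0.00069). Of the genes named as highest, *Ccl22* (2.49) and *Cish* (1.38) were also called higher than IL-4 in the difference. *Arg1* was called lower there (-5.74), and *Ccl17* and *Socs1* were not called.

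The share of the IL-4 level that was kept set *Retnla*, *Rnase2a* and *Ear2* beside these targets. In the remainder, the 15 list genes that rose with IL-4 stood at a median of 65.6% of their level with IL-4 in the same animal, from 27.2% (*Pparg*) to 836% (*Arg1*, means of 3 mice). There *Retnla* averaged 0.044%, *Rnase2a* 7.42% and *Ear2* 10.6%, all under the lowest of the 15, and *Chil3* averaged 70.6%. In the difference the 15 stood at a median of 14.8%, from 1.23% (*Arg1*) to 134% (*Ppargc1b*), and *Retnla* averaged 0.041%, *Rnase2a* 0.307%, *Ear2* 2.25% and *Chil3* 54.1%. The relatives *Rnase6*, *Rnase4* and *Ang* averaged 26.6% to 73.4% in the difference and 31.4% to 99.9% in the remainder. These shares include the level present without IL-4, which in untreated cells was 10.9% of the IL-4 level for *Ear2*, 51.6% for *Chil3*, 0.047% for *Retnla* and a median of 24.9% for the 15, from 2.72% (*Cdh1*) to 53.2% (*Pparg*). *Pparg*, the lowest of the 15 in the remainder, was thus below its untreated share there. The 7 genes were chosen for such values, and the place of *Retnla* below the list is a description.

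**Figure D4:**
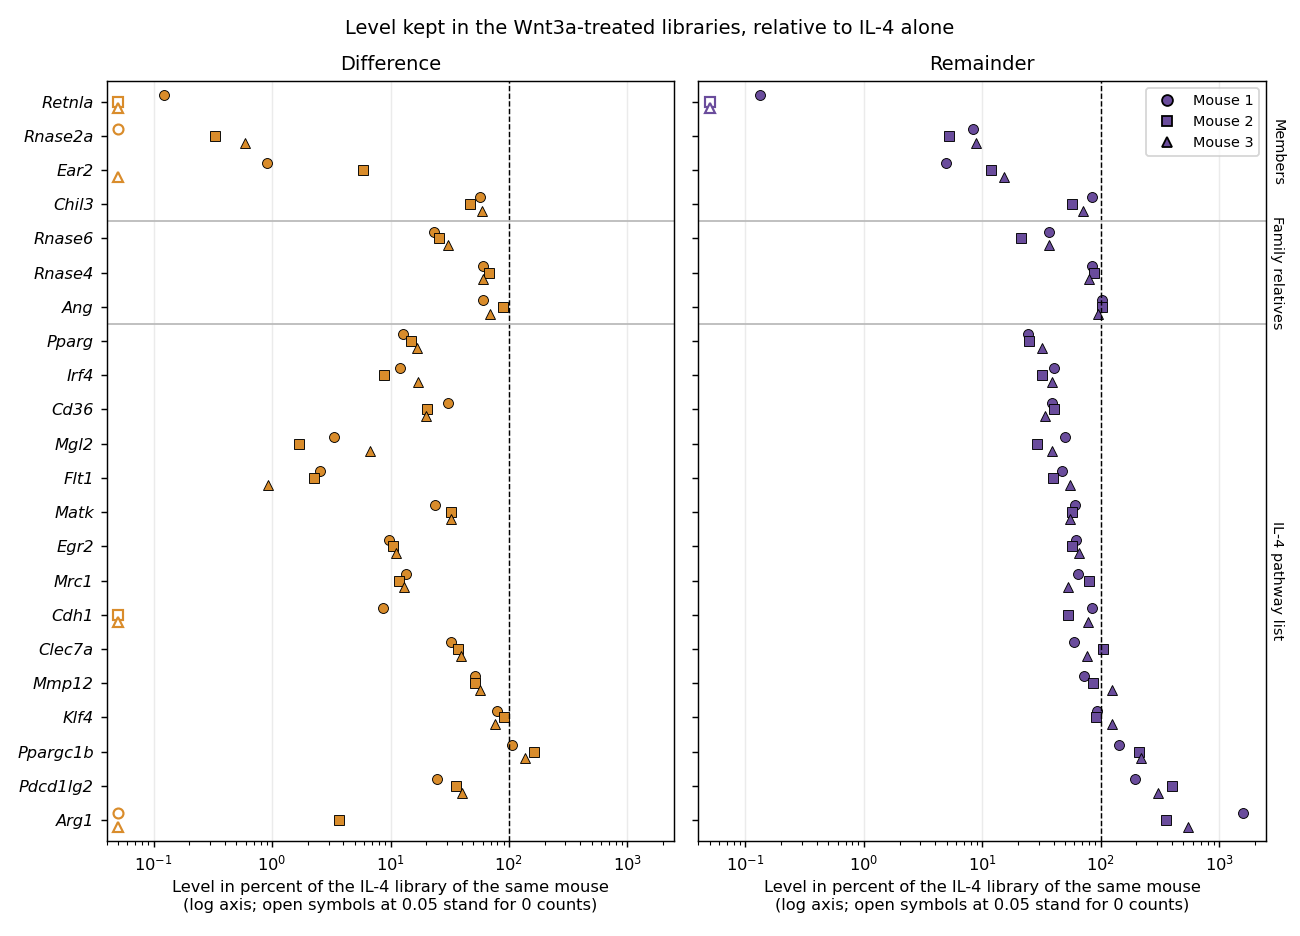
Level in the difference (left) and the remainder (right) in percent of the IL-4 library of the same mouse (x axes, logarithmic; open symbols mark 0 counts and the dashed line 100%), for 4 of the 7 genes, 3 relatives and the 15 list genes that rose with IL-4 (rows), with 1 symbol per mouse. In the remainder *Retnla* is at 1 or 0 counts, *Rnase2a* between 5.18% and 8.80% and *Ear2* between 4.93% and 15.2%, while the means of the 15 genes run from 27.2% to 836%.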

How the data were processed

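RNA-seq of BMDMs from 3 mice in 4 conditions was analysed, 12 samples in all. Per the labels and the study's methods, single reads were trimmed by the authors (Trimmomatic 0.36), aligned to the mm10 genome (STAR 2.6.0) and counted per gene (HTSeq 0.11.1). The deposited values are raw counts, and the strand setting and annotation release are not given in the sources used here. The table pairs 48526 Ensembl identifiers with 12 columns, and 48058 were matched to a symbol. Samples were grouped by their labels. The difference and remainder of each mouse were computed from its Wnt3a and Wnt3a+IL-4 columns.

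The 12421 genes that reached 10 counts in 3 or more libraries (5 of the 7 members among them) entered edgeR's quasi-likelihood test (edgeR 4.0.16, R 4.3.3, TMM) in 1 fit of all 12 libraries, at a Benjamini-Hochberg adjusted p of 0.05. The 7 members, the relatives, the IL-4 pathway list and the markers were chosen with earlier results of these data known, and members got no test. Genes named with values are the 7 members, the tested relatives, pathway genes called with IL-4 or at the extremes of the comparisons with IL-4 (up to 8 each), markers, and the 3 genes with the highest r to each member.

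CPM used library totals multiplied by edgeR's TMM factors, and RPKM also the GENCODE exon length. Intervals are exact (95%) and cover counting error only. A group with 0 counts was set to a floor of 3 counts over the group. Folds against this floor take the counts of the other group as they are, without their counting error. Motifs were searched on both strands of the 250 bases before each RefSeq start. These starts differ from the printed gene coordinates in *Retnla*, *Retnlg* and *Chil4*. Printed stretches begin 40 bases before a motif, and leave out annotated exons. All 7 members matched a RefSeq promoter. Script tests on simulated data recovered known changes. Alternatives were DESeq2 1.42.0, its size factors, total counts, all genes with at least 1 count, only the groups compared, mouse as replicate block, and each mouse left out. Replicates came from separate mice. The same mouse gave 1 library to each group, so the labels pair them. Deviations of same-mouse libraries from their group means correlated between -0.42 and 0.45 over 18 pairs, and 6 were over 0.1. The mast cell and basophil markers summed to 1.49 to 4.58 CPM and the stromal ones to 4.07 to 27.8 CPM.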

Additional observations from a re-analysis of the deposited data

How the results depend on the processing

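Log2 fold changes of *Rnase2a* (in the 3 comparisons without untreated), *Ear2*, *Chil1* and *Chil3* were recomputed under 141 alternatives of 21 comparisons, and 4 moved by over 1 SD: without mouse 3 *Rnase2a* was -9.81 in difference against IL-4 (main -8.73), and without mouse 2 *Ear2* was -3.29 in difference against untreated (-1.93), 3.31 in remainder against difference (2.08) and -6.88 in difference against IL-4 (-5.51). Those of *Retnla* and of *Rnase2a* against untreated were not refitted, because a fitted fold against so few counts depends on the prior count. *Ear2* was not refitted without mouse 3, since it then missed the count filter. Every pooled ratio was recomputed without each mouse, an alternative chosen after seeing the data. Of these 101 values 9 moved by over 1 SD, and those that moved by over 1.5 times among the ratios given are named beside them. Another 4 fitted values, all small, changed sign: *Ear2* in remainder against untreated (0.14, and -0.20 without mouse 1), *Chil1* in difference against untreated (-0.16, and 0.20 without mouse 1) and in remainder against difference (-0.46, and 0.23 without mouse 3), and *Chil3* in difference against untreated (0.07, and -0.02 with total counts). Total counts also moved the median of all genes to -0.10 in the difference and -0.13 in the remainder against untreated.

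Of 140 calls in the lists, 87 held in every alternative, 47 were lost without mouse 3, and 0 changed sign. Leaving out each mouse in turn gave 77 to 296 called genes in IL-4 against untreated (main 422), 1220 to 2117 in difference against untreated (2884), 1375 to 3807 in remainder against untreated (3137), 97 to 1188 in remainder against difference (652), 1208 to 2289 in difference against IL-4 (2519) and 1043 to 2499 in remainder against IL-4 (2521). The lowest was without mouse 3 each time. In the pathway list it gave 9 to 15 in IL-4 against untreated, 13 to 19 in difference against untreated and 9 to 21 in remainder against difference. Among the relatives it gave 0 to 3, 0 to 1, 1 to 3 and 0 to 3 in the first 4 of these comparisons, and 1 to 2 in remainder against IL-4. Keeping all genes with at least 1 count gave 812 calls in IL-4 against untreated and 1454 in remainder against difference, and 2 relatives in difference against untreated and 3 in remainder against difference. With only the groups compared, remainder against difference gave 422 genes and 0 relatives, and with total counts 0 relatives. For difference against untreated, the fit of only the groups compared called 0 relatives lower and 1 higher, in place of 1 lower and 0 higher.

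With mouse as replicate block, 24 pathway genes were called in remainder against untreated, as without it, and no count moved by over 1.5 times. The block ended 2 calls in the lists, *Ang* in difference against IL-4 and *Ccl24* in remainder against IL-4. Each group holds 3 mice, and *Retnla*, *Rnase2a*, *Retnlg* and *Chil4* rest on few or 0 counts outside IL-4, so their folds are limited by depth.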
